A study of Mus musculus with 6 samples.

Results

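The genes described here belong to the gene families named for the subunits of the voltage-gated sodium and calcium channels. Not all of them encode such subunits: most Cacng genes and Scn7a have other roles, given below, and are classed here by symbol. They were taken by symbol: every gene of the count table named Scn, a number and a or b, or with a name starting Cacna, Cacnb or Cacng. This gave 39 of 35976 genes, 19 pore-forming (9 sodium channel alpha subunits, 10 calcium channel alpha1 subunits) and 20 auxiliary (4 sodium channel beta subunits, 4 Cacna2d, 4 Cacnb and 8 Cacng genes). Scn2a1, the table's symbol for the brain sodium channel alpha gene now called Scn2a, does not match the pattern and is not counted among the 39, but its values are given beside them. RNA of amygdala neurons from male C57BL/6J mice was sequenced in 6 libraries. All mice carried an adeno-associated virus aimed at astrocytes by the GfaABC1D promoter, which drove Cas9. In 3 libraries (sgRosa, genotype label sgRosa26) the guide targeted Rosa, a control locus, and in 3 (sgEgfr, genotype label sgEgfrAstro) it targeted Egfr, the epidermal growth factor receptor gene. Both groups expressed the virus for more than 2 weeks and then were stressed by tube restraint for 7 days, fear conditioned on 1 day and put through extinction on 3 days. The treatment text also names guides for microglia, and the labels of these 6 libraries do not say whether the mice carried them. The guides against Egfr and Rosa were aimed at astrocytes, while the sequenced cells were enriched for neurons. Whether each library came from 1 animal or several is not stated, so p-values measure only the spread between these libraries.

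Sodium channels open on depolarization and carry the upstroke of the action potential. Each has 1 alpha subunit, which forms the pore, and beta subunits, which are small membrane proteins with an immunoglobulin-like domain that shift gating and act in cell adhesion. Voltage-gated calcium channels turn depolarization into calcium entry, which triggers transmitter release at terminals and signalling in dendrites and the nucleus. Their alpha1 subunit forms the pore, the intracellular beta subunit and the extracellular alpha2delta subunit (Cacna2d genes) bring it to the membrane and set its gating, and most Cacng genes encode TARPs, which traffic AMPA-type glutamate receptors and are named for their likeness to the muscle calcium channel gamma subunit.

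RefSeq (GRCm38.p6) windows of the 250 bases before an annotated start were matched for 29 of the 39 members. Of these windows 21 overlap the gene as GENCODE draws it, so they are not described as a class. Those of 4 genes are printed because they lie before the genes whose values are described most closely: the auxiliary genes Cacna2d3 and Scn2b, the family neighbour Cacna2d1, and Scn2a1. Each is written 5′ to 3′ on the strand of its gene with CG dinucleotides in capitals, and the one of Scn2b stops where the GENCODE transcript begins.
Cacna2d3, chr14:29721865-29722114, minus strand: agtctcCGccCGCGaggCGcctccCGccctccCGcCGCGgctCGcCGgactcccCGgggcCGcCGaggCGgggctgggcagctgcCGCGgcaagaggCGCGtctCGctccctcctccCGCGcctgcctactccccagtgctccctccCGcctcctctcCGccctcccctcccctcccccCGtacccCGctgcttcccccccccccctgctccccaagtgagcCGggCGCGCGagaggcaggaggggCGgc
Cacna2d1, chr5:15934441-15934690, plus strand: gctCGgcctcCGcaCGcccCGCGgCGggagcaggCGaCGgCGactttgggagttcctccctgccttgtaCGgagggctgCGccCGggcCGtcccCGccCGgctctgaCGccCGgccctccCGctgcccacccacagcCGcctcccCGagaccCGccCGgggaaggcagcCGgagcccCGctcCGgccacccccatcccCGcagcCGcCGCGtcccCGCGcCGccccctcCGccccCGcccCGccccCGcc
Scn2b, chr9:45117626-45117781, plus strand: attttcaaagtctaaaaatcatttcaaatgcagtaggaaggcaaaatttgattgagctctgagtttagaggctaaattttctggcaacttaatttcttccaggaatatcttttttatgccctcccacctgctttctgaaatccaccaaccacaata
Scn2a1, chr2:65620519-65620768, plus strand: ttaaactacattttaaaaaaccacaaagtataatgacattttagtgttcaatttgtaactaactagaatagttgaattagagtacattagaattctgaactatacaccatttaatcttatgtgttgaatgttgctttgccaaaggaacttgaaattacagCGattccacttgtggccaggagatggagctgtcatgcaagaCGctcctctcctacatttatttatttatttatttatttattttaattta

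The 2 alpha2delta genes stand behind CG-rich sequence, with 30 CG dinucleotides for Cacna2d3 and 36 for Cacna2d1 in 250 bases. The 156 bases printed for Scn2b hold 0 and the 250 for Scn2a1 hold 2. For comparison, the median was 6 over 27025 RefSeq windows and 16 over the windows of 10396 tested genes. These windows have 250 bases and were not cut at the GENCODE start, and the uncut window of Scn2b holds 1. Promoter choice was not measured here, and these counts are descriptions of the reference sequence.

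Total counts ranged from 2348897 to 10152812, and the members together took 3369, 2841 and 24990 counts in sgRosa replicates 1 to 3 and 10419, 6887 and 6984 in sgEgfr replicates 1 to 3. Egfr, the targeted gene, had 1, 26 and 23 counts in sgRosa and 6, 18 and 6 in sgEgfr; these reads come from a neuron-enriched preparation and do not check an edit made in astrocytes. Summed CPM (counts scaled to library size, adjusted between libraries by TMM) of 16 pan-neuronal genes lay between 2329 and 5618, and that of 10 oligodendrocyte genes between 22648 and 72656, so neuronal markers were well detected beside a large share of oligodendrocyte RNA. Choroid plexus genes (8 genes) summed to 11581 CPM in sgRosa replicate 3 and 8603 CPM in sgEgfr replicate 1, against 512 to 2449.5 CPM in the other 4 libraries. In such bulk samples fewer cells of a type and less RNA per cell cannot be told apart.

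The sgEgfr and sgRosa libraries were compared to see how neuronal expression in stressed mice differs when the astrocytes carry a guide against Egfr. Most tested channel genes had positive log2 fold changes, but none passed the test. Of the 39 members 32 passed the filter on low counts and were tested, and 24 of these had positive and 8 negative log2 fold changes, where 46.2% of all 13159 tested genes were positive and 53.8% negative. The median log2 fold change was 0.23 over the tested members, 0.27 over 13 pore-forming and 0.21 over 19 auxiliary genes, and -0.039 over all tested genes. Which class had the higher median depended on the processing. Pore-forming genes were positive in 11 of 13 and auxiliary genes in 13 of 19. The auxiliary genes held both ends of the range, from -1.67 for Scn4b to 1.03 for Scn2b. They include 6 tested TARP genes of the Cacng family (5 positive, median 0.26). In the quasi-likelihood test of edgeR, Benjamini-Hochberg adjusted over all tested genes, 0 members passed an adjusted p of 0.05 (smallest adjusted p = 0.820), as did 0.0% of all genes. At an unadjusted p under 0.05 there were 3 members, Scn2b on the higher side and Cacna2d3 and Scn4b on the lower, beside 5.77% of all genes (3.05% higher, 2.72% lower). DESeq2 called 0 members (smallest adjusted p = 0.425, undefined for 17 of 32) and 0.251% of all 13159 genes, of which 5114 had no adjusted p. Cacna2d3 and Scn4b were among the 17 members without an adjusted p, so DESeq2 could not call them. The alternative limma-voom called 0 members (smallest adjusted p = 0.250) and 0.0% of all genes.

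**Figure D1:**
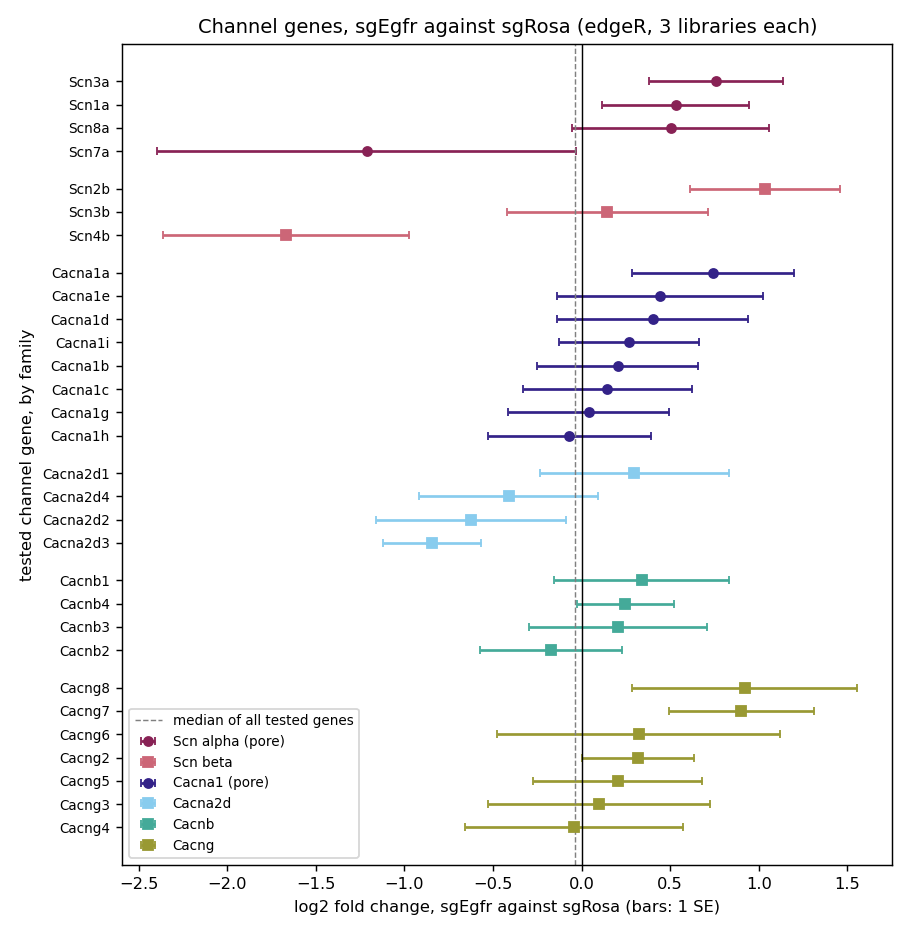
Log2 fold change (x axis) of tested channel genes, listed by family on the y axis, with 1 SE as bars; circles are pore-forming and squares auxiliary genes, and the dashed line is the median of all tested genes. Most points lie between 0 and 1 with bars that reach 0, while Scn4b, Scn7a and 3 Cacna2d genes lie on the negative side and Cacnb2, Cacna1h and Cacng4 just below 0.

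By mean log2 CPM the channel genes put the libraries in the same order as the pan-neuronal genes did. The mean log2 CPM of the 32 tested members was 3.63, 3.94 and 4.59 in sgRosa replicates 1 to 3 and 4.24, 4.09 and 4.71 in sgEgfr replicates 1 to 3. For sgRosa the same mean over pan-neuronal genes came to 6.55, 6.57 and 7.66, and for sgEgfr to 7.50, 7.03 and 7.77. Both orders are the same, with sgRosa replicates 1 and 2 lowest and sgEgfr replicate 3 highest. By summed CPM the pan-neuronal genes were instead lowest in sgRosa replicate 2 (2329) and highest in sgRosa replicate 3 (5618). Relative to the pan-neuronal mean, the members lay at -2.88 ± 0.223 log2 units (SD, n = 3) in sgRosa and -3.09 ± 0.157 (SD, n = 3) in sgEgfr, and the ranges overlapped. With that mean as a covariate of the edgeR fit, 9 of 32 members were positive and the median turned to -0.14. The median also depended on single libraries: leaving out sgRosa replicate 1, 2 or 3 gave 0.020, 0.14 or 0.77, and leaving out sgEgfr replicate 3 gave -0.0012. Positive members numbered 16 of 33 without sgEgfr replicate 3, 17 of 33 without sgRosa replicate 1 and 26 of 33 without sgRosa replicate 3. Of the pan-neuronal genes 15 of 16 were positive (median log2 fold change 0.41), beside 24 of 32 members (0.23). Among markers of cell types, 0 of 10 oligodendrocyte genes were positive (median log2 fold change -0.86), 10 of 10 microglia genes (1.35), 8 of 8 excitatory neuron genes (0.82) and 0 of 9 inhibitory neuron genes (-0.95). Astrocyte genes were positive in 2 of 10 (-0.15), oligodendrocyte precursor genes in 4 of 6 (0.67) and endothelial and mural genes in 2 of 9 (-0.31). Choroid plexus genes were positive in 3 of 8 (-0.485) and ependymal genes in 0 of 5 (-1.06). Summed CPM of the oligodendrocyte genes was 24623 to 72656 in sgRosa and 22648 to 57947 in sgEgfr, and that of the microglia genes 84.1 to 206 and 40.9 to 597, so these groups overlapped. No marker gene was at 0 in all libraries, and the part of these cells in the channel values was not tested.

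**Figure D2:**
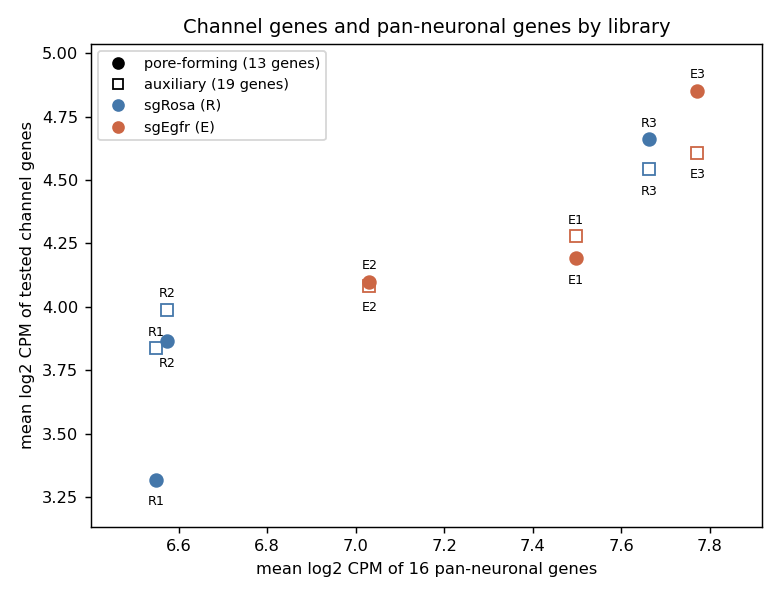
Mean log2 CPM of the tested pore-forming (filled circles) and auxiliary (open squares) channel genes on the y axis against that of 16 pan-neuronal genes on the x axis, 1 point per library (R, sgRosa; E, sgEgfr; the digit is the replicate). Both classes climb with the pan-neuronal level, and sgRosa replicate 3 lies with the sgEgfr libraries.

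The mean over the pore-forming genes varied more between libraries than the mean over the auxiliary genes. For pore-forming genes the mean log2 CPM ran from 3.32 in sgRosa replicate 1 to 4.85 in sgEgfr replicate 3. For auxiliary genes it ran from 3.84 to 4.61 in the same libraries. The variation of single genes was not compared between the classes. The difference between the class means, pore-forming minus auxiliary, was -0.17 ± 0.322 (SD, n = 3) in sgRosa and 0.058 ± 0.171 (SD, n = 3) in sgEgfr. Its values of -0.52, -0.13 and 0.12 in sgRosa and -0.088, 0.017 and 0.25 in sgEgfr overlapped, so the classes did not separate the groups.

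Among sodium channel alpha genes the main brain types all had higher means in sgEgfr. Scn3a, an alpha gene strong in developing brain (chromosome 2, 65457118 to 65567627, minus strand, mm10), was at 22.2, 42.6 and 44.9 CPM in the sgRosa libraries and 45.2, 50.2 and 91.6 CPM in the sgEgfr libraries. The groups did not overlap, but sgRosa replicate 3 and sgEgfr replicate 1 lay next to each other, and the log2 fold change of 0.76 (SE 0.38) did not pass (edgeR adjusted p = 0.820). Scn1a, the alpha gene of Dravet syndrome and of fast-spiking interneurons, was at 20.5, 28.0 and 38.0 CPM against 29.4, 28.1 and 69.4 CPM, and sgEgfr replicate 3 alone lay above all sgRosa libraries. Its log2 fold change of 0.53 (SE 0.41) was 0.021 without sgEgfr replicate 3.

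Scn8a, the alpha gene of nodes and the distal axon initial segment, was at 43.0, 40.1 and 156 CPM in sgRosa and 122, 73.9 and 147 CPM in sgEgfr. Only sgRosa replicates 1 and 2 lay below the sgEgfr libraries, and the log2 fold change of 0.50 (SE 0.56) was 1.45 without sgRosa replicate 3 and -0.066 with the pan-neuronal covariate. Scn2a1, the main alpha gene of excitatory neurons and unmyelinated axons, was at 83.0, 105 and 271 CPM in sgRosa and 310, 183 and 445 CPM in sgEgfr. Here sgEgfr replicate 2 lay below sgRosa replicate 3. Its log2 fold change of 1.03 (SE 0.52; edgeR adjusted p = 0.820) was 0.39 with the pan-neuronal covariate.

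Scn7a, which encodes a sodium-sensing relative of the channels found in glia and in circumventricular organs, had its highest value in a single sgRosa library. It was at 0.844, 48.5 and 5.13 CPM in sgRosa and 2.99, 13.4 and 5.85 CPM in sgEgfr, so that replicate 2 was the highest library of each group. The log2 fold change of -1.21 (SE 1.18) turned to 1.25 without sgRosa replicate 2. Ependymal genes (5 genes) summed to 115 CPM in that library and to 6.47 to 51.3 CPM in the other 5, and astrocyte genes (10 genes) to 1544 CPM there and 1648 CPM in sgEgfr replicate 2, against 464 to 1126 CPM in the other 4. The part of these cells in the Scn7a values was not tested. The muscle gene Scn4a had 0 counts in all 6 libraries, which allows up to 0.270 to 1.25 CPM by a floor of 3 counts per library (counting error only). The genes of sensory neurons Scn9a, Scn10a and Scn11a reached at most 17, 5 and 4 counts and were not tested.

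Divided by exonic length, so that genes can be compared, Scn2a1 led the alpha genes in all 6 libraries. Among the 10 alpha genes with Scn2a1 counted, Scn2a1 took 45.1% ± 10.1 of the family's counts per kilobase (SD, n = 3) in sgRosa and 57.1% ± 5.92 (SD, n = 3) in sgEgfr. The single values were 48.4, 33.7 and 53.2% in sgRosa and 62.2, 50.6 and 58.4% in sgEgfr, so only sgEgfr replicate 2 lay among the sgRosa values. Scn8a followed with 18.5% ± 7.34 and 17.3% ± 2.13, Scn3a with 12.1% ± 2.69 and 11.9% ± 2.49, and Scn1a with 10.8% ± 2.63 and 8.68% ± 1.85, each with overlapping groups. The order of these 3 genes was not the same in every library. In sgRosa replicate 2 Scn7a took 27.1%, more than any alpha gene but Scn2a1.

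The sodium channel beta genes held the largest differences in both directions. Scn2b encodes a beta subunit that is bound to alpha subunits by a disulfide bond and is the beta gene with the highest level here. It was at 262, 469 and 670 CPM in sgRosa and 979.9, 669 and 1224 CPM in sgEgfr, with sgEgfr replicate 2 just below sgRosa replicate 3 and the other 2 sgEgfr libraries above all of sgRosa. The means were 467 ± 204 and 958 ± 278 CPM (SD, n = 3 each), a log2 fold change of 1.03 (SE 0.42) with an unadjusted p of 0.0413 and an edgeR adjusted p of 0.820. The value stayed positive without each library in turn (0.77 to 1.39) and was 0.60 with the pan-neuronal covariate.

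Scn4b, whose product gives the blocking particle of resurgent sodium current, lies 8.32 kb downstream of Scn2b on chromosome 9 (Scn2b 45117782 to 45130070, Scn4b 45138395 to 45154152, both plus strand). It was at 36.8, 22.1 and 4.23 CPM in sgRosa and 6.82, 6.02 and 6.62 CPM in sgEgfr. The high values were those of sgRosa replicates 1 and 2, while sgRosa replicate 3 was the lowest of all 6 libraries. Its log2 fold change was -1.67 (SE 0.69, unadjusted p = 0.0435, edgeR adjusted p = 0.820), -0.92 without sgRosa replicate 1 and -0.28 with the pan-neuronal covariate. Scn4b is known for its strength in striatal neurons. The striatal gene Rgs9 was at 19.7, 26.3 and 4.59 CPM in sgRosa and 4.05 to 6.69 CPM in sgEgfr, and the receptor gene Adora2a at 29.5, 32.6 and 6.93 CPM and 10.5 to 17.7 CPM, both high in the same 2 libraries. Drd1 was at 13.5, 11.3 and 4.05 CPM in sgRosa and 4.48 to 7.01 CPM in sgEgfr, and Ppp1r1b at 140.3 to 157 CPM and 76.3 to 107 CPM. These genes were chosen after the values of Scn4b were seen, and their part in its difference was not tested.

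Scn3b had a log2 fold change of 0.14 (SE 0.57), which moved to 1.03 when sgRosa replicate 3 was left out and to -0.19 when sgEgfr replicate 3 was. Per kilobase Scn2b was far above Scn3b and Scn4b, at 100.3 CPM per kb in sgRosa and 206 in sgEgfr, against 5.85 and 6.64 for Scn3b and 4.23 and 1.30 for Scn4b. It made up 62.0, 80.6 and 72.6% of the family in sgRosa and 84.0, 80.2 and 83.9% in sgEgfr, with the first sgRosa library lowest and sgRosa replicate 2 inside the sgEgfr range. Scn4b took 8.14, 3.56 and 0.428% in sgRosa and 0.424 to 0.675% in sgEgfr.

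**Figure D3:**
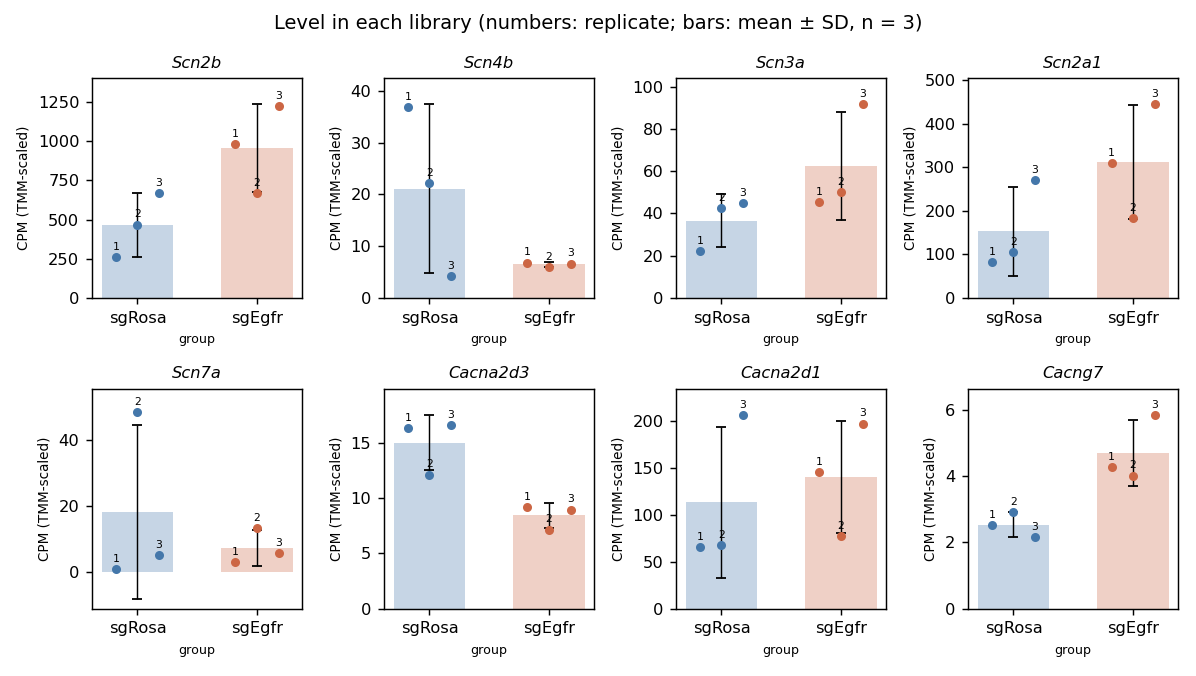
TMM-scaled CPM (y axis) of 8 channel genes in each library of sgRosa and sgEgfr (x axis); points are libraries labelled by replicate, bars are means and lines 1 SD (n = 3). Groups are apart for Scn3a, Cacna2d3 and Cacng7, while the high sgRosa means of Scn4b and Scn7a come with 2 and 1 high libraries.

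No calcium channel alpha1 gene passed the test. Of 10 genes 8 were tested, 7 with positive log2 fold changes, and the family median was 0.24 with a range from -0.069 (Cacna1h) to 0.74 (Cacna1a). No alpha1 gene had groups that did not overlap, where 13.4% of all tested genes did. Cacna1a, the P/Q-type gene of most fast synapses, was at 8.16, 4.18 and 17.1 CPM in sgRosa and 17.3, 16.1 and 18.3 CPM in sgEgfr. Its sgRosa replicate 3 fell within the narrow sgEgfr range and the other 2 sgRosa libraries below it (log2 fold change 0.74, SE 0.46, edgeR adjusted p = 0.829). Its exons overlap those of Gm16183 on the opposite strand, and reads of such a pair cannot be told apart, since no source used here says whether counting was by strand.

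Cacna1e, the R-type gene, was at 33.2, 40.9 and 148 CPM in sgRosa and 105, 64.9 and 135 CPM in sgEgfr (log2 fold change 0.44, SE 0.58). Cacna1b, the N-type gene, was at 16.9, 18.4 and 48.3 CPM in sgRosa and 32.0, 23.0 and 43.6 CPM in sgEgfr (0.20, SE 0.45). In both, sgRosa replicate 3 was the highest of the 6 libraries and sgRosa replicates 1 and 2 the lowest. Cacna1d, an L-type gene that opens at lower voltages, was at 3.94, 5.85 and 15.8 CPM in sgRosa and 10.7, 8.48 and 16.8 CPM in sgEgfr (0.40, SE 0.54). Leaving out sgRosa replicate 3 gave 1.45 for Cacna1e and 1.28 for Cacna1d, and leaving out sgRosa replicate 1 gave 0.12 and 0.080. The other L-type gene of brain, Cacna1c, stood at 0.14 (SE 0.48), and the T-type genes Cacna1g, Cacna1h and Cacna1i at 0.040, -0.069 and 0.27. The muscle gene Cacna1s and the retinal gene Cacna1f reached at most 6 counts and 1 count and were not tested.

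Per kilobase the N-type and R-type genes led the alpha1 family. Cacna1b took 25.1% ± 1.73 and 23.4% ± 0.433 of it and Cacna1e 24.0% ± 6.57 and 28.3% ± 2.61 (SD, n = 3 each, sgRosa then sgEgfr), which does not set their order apart. Before division by length Cacna1e had more counts than Cacna1b in every library, with 1643 against 537 in sgRosa replicate 3. Cacna1i stood below them with 11.5% ± 2.77 and 10.1% ± 1.09, Cacna1a with 7.63% ± 2.27 and 11.2% ± 2.65 and Cacna1h with 9.56% ± 5.68 and 6.32% ± 1.13. The share of Cacna1b lay between 22.9 and 26.4% in all 6 libraries. In sgRosa replicate 1 Cacna1h reached 16.1% against 5.30 to 7.53% in the other 5.

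The alpha2delta genes were the family with the lowest median (-0.52), and 3 of its 4 genes were negative. Cacna2d3 (chromosome 14, 28904943 to 29721864, minus strand), an alpha2delta gene studied in pain and in hearing and synapse formation, was at 16.3, 12.1 and 16.6 CPM in sgRosa and 9.17, 7.14 and 8.96 CPM in sgEgfr. All sgEgfr libraries lay below all sgRosa libraries, and the SD was 2.50 CPM in sgRosa and 1.12 CPM in sgEgfr (n = 3 each). It had the smallest p of the members (log2 fold change -0.84, SE 0.28, unadjusted p = 0.0164) and ranked 178th of all tested genes, with an edgeR adjusted p of 0.820. The value ranged from -0.94 to -0.71 without each library in turn and was -0.96 with the pan-neuronal covariate. Groups without overlap, sgEgfr lower, were found for 7.6% of all tested genes, and among the members for Cacna2d3 alone.

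Cacna2d1, the main target of gabapentin, was at 65.2, 68.1 and 206 CPM in sgRosa and 146, 77.7 and 197 CPM in sgEgfr, with sgRosa replicate 3 the highest library (log2 fold change 0.30, SE 0.53). The value was 1.07 with that library left out and 0.017 with sgEgfr replicate 3 left out. Cacna2d2, which also binds gabapentin, was at 8.16, 14.2 and 4.41 CPM in sgRosa and 3.41, 5.13 and 8.57 CPM in sgEgfr (-0.62, SE 0.54), with sgRosa replicate 2 highest. It was -0.12 without that library. Cacna2d4, a retinal photoreceptor gene, was at 3.94, 6.27 and 3.421 CPM against 3.41, 4.69 and 1.56 CPM (-0.41, SE 0.50), with overlapping groups.

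The make-up of the alpha2delta family split the libraries differently from the groups. Cacna2d1 took 61.3, 58.8 and 85.5% of the family's counts per kilobase in sgRosa and 86.4, 76.2 and 87.5% in sgEgfr, so that sgRosa replicates 1 and 2 were low and sgRosa replicate 3 lay among the sgEgfr values. Cacna2d3 took 21.8, 14.9 and 9.78% in sgRosa and 7.75, 9.97 and 5.66% in sgEgfr. Inhibitory neuron genes (10 genes) summed to 359, 369 and 155 CPM in sgRosa and 122, 243 and 149 CPM in sgEgfr, and excitatory neuron genes (8 genes) to 1372, 911 and 3019 CPM and 2665, 1675 and 2174 CPM. The 2 sgRosa libraries with a low Cacna2d1 share had the highest inhibitory sums of the 6, and the lowest excitatory sums. The part of this balance in the shares was not tested.

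**Figure D4:**
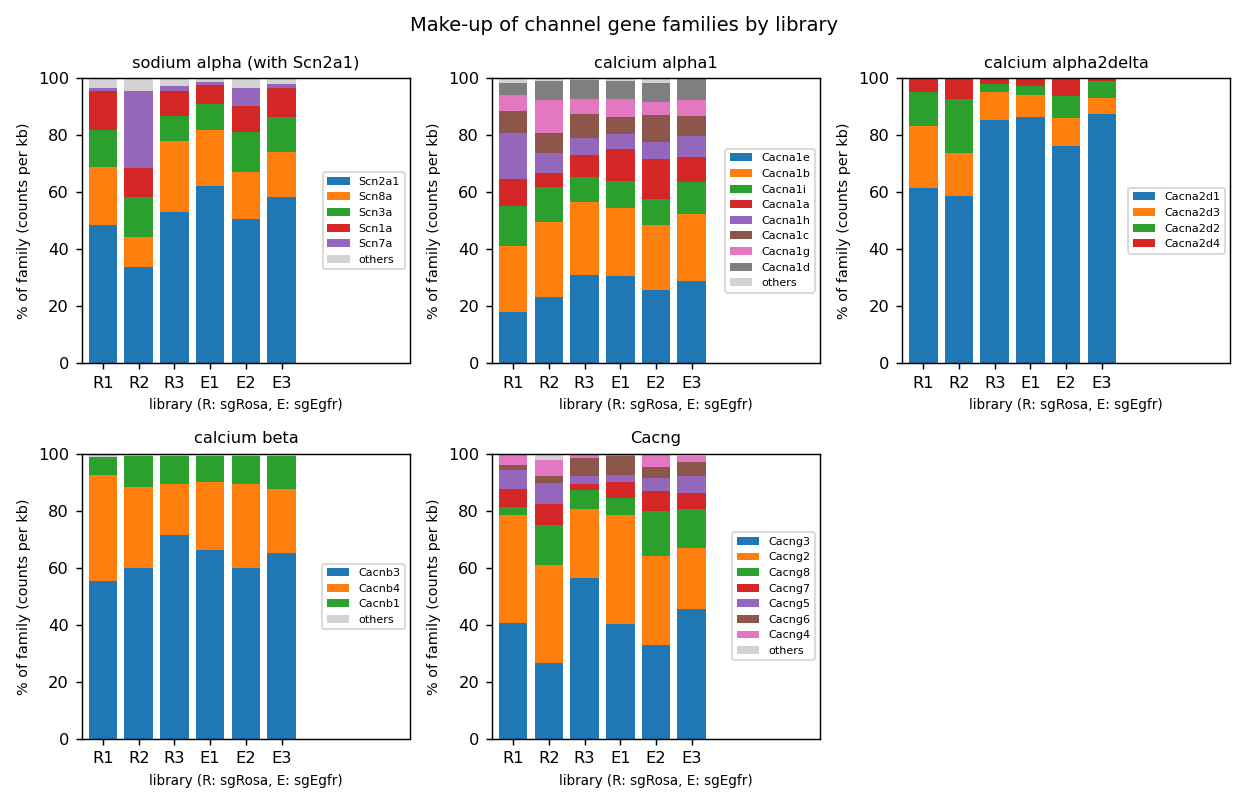
Share of each gene (y axis, percent of the family's counts per kilobase of exonic length) in channel gene families for each library (x axis; R, sgRosa; E, sgEgfr); genes under 1% on average over the libraries, and any not reported here, are joined as others. Scn2a1 and Cacna2d1 take the largest part of their families in every library, and sgRosa replicate 2 stands apart in the sodium alpha family with 27.1% Scn7a.

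The Cacnb genes, which encode the intracellular subunits, did not separate the groups. Cacnb3, a beta gene of N-type channels and the highest of the family per kilobase, was at 88.9, 92.3 and 288 CPM in sgRosa and 223, 120 and 201 CPM in sgEgfr (log2 fold change 0.21, SE 0.50). Cacnb4, the gene mutated in the lethargic mouse, was at 132, 98.2 and 162 CPM in sgRosa and 180.4, 131 and 156 CPM in sgEgfr, with 1 library above the sgRosa range (0.25, SE 0.27). Cacnb1 was at 11.5, 18.8 and 45.3 CPM against 35.2, 22.3 and 40.5 CPM (0.34, SE 0.49), and moved to 1.115 or 0.020 when sgRosa replicate 3 or 1 was left out. Cacnb2, the main cardiac type, was at 5.34, 3.34 and 7.29 CPM against 5.33, 4.24 and 5.07 CPM (-0.17, SE 0.40). In all of these but Cacnb4 sgRosa replicate 3 was the highest library. Cacnb3 took 62.4% ± 8.23 and 63.9% ± 3.27 of the family per kilobase and Cacnb4 27.9% ± 9.54 and 25.3% ± 3.51 in sgRosa and sgEgfr (SD, n = 3 each), apart in every library. This order depends on the length, since sgRosa replicate 1 had 471 counts of Cacnb4 and 316 of Cacnb3. Exons of Cacnb1, Cacnb2 and Cacnb4 overlap genes on the opposite strand, as do those of 10 members in all.

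Among the Cacng genes 6 of 7 tested members were positive, with the largest values for 2 neighbours on chromosome 7. Cacng7, a type II TARP gene, was at 2.53, 2.92 and 2.16 CPM in sgRosa and 4.27, 4.02 and 5.85 CPM in sgEgfr, so that the lowest sgEgfr library exceeded the highest of sgRosa. Its log2 fold change of 0.90 (SE 0.41, unadjusted p = 0.0590, edgeR adjusted p = 0.820) rests on 7 to 24 counts per library, near the filter. Cacng8, the type I TARP gene of hippocampus and forebrain that starts 22.5 kb after the end of Cacng7, was at 1.13, 5.43 and 6.57 CPM in sgRosa and 4.48, 8.70 and 12.9 CPM in sgEgfr (0.92, SE 0.63), with overlapping groups. Groups without overlap, sgEgfr higher, were found for 5.8% of all tested genes and for 2 members, Scn3a and Cacng7.

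Cacng2, the stargazin gene, was at 34.3, 31.3 and 57.9 CPM in sgRosa and 66.8, 40.6 and 47.9 CPM in sgEgfr (log2 fold change 0.32, SE 0.32). Cacng3, a cortical TARP gene, was at 18.6, 12.1 and 67.8 CPM in sgRosa and 35.6, 21.6 and 51.4 CPM in sgEgfr (0.097, SE 0.63), with sgRosa replicate 3 highest. These 2 genes led the family per kilobase, Cacng3 with 26.5 to 56.5% in sgRosa and 33.0 to 45.6% in sgEgfr and Cacng2 with 24.3 to 37.9% and 21.4 to 38.2%, and their order was not the same in every library. Cacng4, Cacng5 and Cacng6 stood at -0.043, 0.20 and 0.32. The skeletal muscle gene Cacng1 reached at most 1 count and was not tested. Of the 4 AMPA receptor subunit genes that TARPs bind, 3 were positive and 1 negative, with 0 past the test (edgeR) and 0 at an unadjusted p under 0.05.

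Of the genes listed for products that hold or use these channels, none passed the test by edgeR. Beside the counts in this and the next paragraph, 46.2% of all tested genes and 15 of 16 pan-neuronal genes (median log2 fold change 0.41) were positive. Of 13 partners of sodium channels at the axon initial segment 12 were positive (median 0.42). The largest value was that of Fgf12, an intracellular FGF homologue that binds the alpha subunit tail, at 71.2, 167 and 368 CPM in sgRosa and 530, 390 and 736 CPM in sgEgfr. The groups did not overlap, and the log2 fold change was 1.44 (SE 0.58, unadjusted p = 0.0377, edgeR adjusted p = 0.820). Groups without overlap were found for 1 of these 13 genes, beside 13.4% of all tested genes (5.8% with sgEgfr higher). Its relative Fgf14 was 2.16-fold as high in sgEgfr, with overlapping groups, and the ankyrin-B gene Ank2 had a log2 fold change of 0.48 (SE 0.28). All 4 tested genes of the sodium leak channel complex were positive (median 0.39), among them Fam155a (1.00, SE 0.53) and Unc80 (0.61, SE 0.40). With the pan-neuronal covariate Fgf12 was at 0.91, Fgf14 at 0.52, Ank2 at 0.31, Fam155a at 0.45 and Unc80 at 0.19.

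Of 12 genes of the active zone scaffold that places calcium channels at release sites 11 were positive (median 0.47). Ppfia2, a liprin-alpha gene, was at 37.7, 42.2 and 87.0 CPM in sgRosa and 153, 78.5 and 178 CPM in sgEgfr (log2 fold change 1.28, SE 0.43, edgeR unadjusted p = 0.0186), with sgEgfr replicate 2 below sgRosa replicate 3. Erc1, an ELKS gene, had groups that did not overlap (0.51, SE 0.23). Calcium extrusion genes were positive in 8 of 9 (median 0.40, the exchanger gene Slc8a1 at 0.69, SE 0.45), and calcium sensor and kinase genes in 8 of 10 (median 0.28, the calcineurin gene Ppp3ca at 0.89, SE 0.46). Genes of calcium release and store-operated entry were positive in 7 of 10 (median 0.12). There the store sensor gene Stim2 stood at 1.30 (SE 0.62) and the ryanodine receptor gene Ryr3 at -0.49 (SE 0.32), both without overlap of the groups. That was so for 2 of these 10 genes and 1 of the 12 scaffold genes, beside 13.4% of all tested genes. Small GTPases and other calcium channel inhibitors were positive in 4 of 5 (median 0.021), with Rrad at -0.65 (SE 0.48). With the pan-neuronal covariate Ppfia2 was at 0.73, Erc1 at 0.37, Slc8a1 at 0.15, Stim2 at 0.81, Ryr3 at -0.43 and Rrad at -0.070.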

How the data were processed

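Raw, unnormalized counts of each gene were deposited by the authors as whole numbers, in 1 table per library and 1 series table whose 6 mapped columns are identical to them; 3 other columns of that table match no sample and were not used. The submitters' processing notes name STAR 2.7.5c, FastQC 0.11.9, edgeR 3.42.4, featureCounts 2.0.1, MultiQC 1.11, fastp 0.23.2 and build mm10; the annotation and strand setting are not given in the sources used here. Molecular identifiers are not mentioned in the labels, so floors cover counting error only. Genes passing edgeR's filterByExpr (minimum count 10, total 15; 13159 genes) were scaled by TMM and tested by the robust quasi-likelihood test (edgeR 4.0.16, R 4.3.3), tested on simulated data first, with the threshold at an adjusted p of 0.05. DESeq2 1.42.0 and limma-voom (limma 3.58.1) with quality weights were alternatives. SEs come from the fold change and F. Log2 CPM used a prior count of 2. Levels per kilobase and shares used exonic lengths and positions from GENCODE M21. A length joins all annotated exons of a gene, and it may differ from the length over which reads were counted. All pairs of libraries differed beyond sampling noise (lowest chi-square per degree of freedom 10.4).

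The members, the gene lists and the alternatives were chosen with earlier results of these data known. Values of every library are given for the 3 tested members of each family with the smallest p and the 2 with the highest level per kilobase; of each related list at most 3 genes of smallest p are named. Upstream windows were matched by symbol. Values of some genes are not reported here, though counts and medians over the members include them.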

Additional observations from a re-analysis of the deposited data

How the results depend on the processing

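No member passed an adjusted p of 0.05 under any alternative, or an adjusted p of 0.1 as reported; the smallest adjusted p of any tested member in any of them was 0.126. Over all genes DESeq2 called 33 and the fit with no filter 1, where the edgeR fit called 0. A stricter filter or none, scaling by RLE or library size and the replicate block turned no sign among the members and related genes named. Nor did DESeq2 where it gave an adjusted p. Of the 32 tested members 12 kept their sign in every alternative in which signs of single genes were compared. Removal of the length trend, described below, was not among these and gave no p-values.

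The replicate block (0 members called, median log2 fold change 0.35 over the members) rests on numbers that the labels do not call pairs: deviations of same-numbered libraries correlated at -0.031, 0.478 and 0.279 over genes, and not every library correlated best with its own number. Medians of all, pore-forming, auxiliary, sodium and calcium members ranged without each library from -0.0012 to 0.77, from -0.0076 to 0.84, from -0.046 to 0.74, from -0.086 to 0.77 and from -0.0012 to 0.77. Without sgRosa replicate 3 and sgEgfr replicate 1, the 2 libraries high in choroid plexus genes, they were 0.83, 0.96, 0.70, 0.95 and 0.75. By limma-voom the pore-forming median was 0.49 and the auxiliary median 0.64. With the trend of the fold change on exonic length removed (lowess span 0.3), the median of all members was 0.17. It was then 0.16 over pore-forming genes (9 of 13 positive) and 0.26 over auxiliary genes (14 of 19). In these settings and some others the auxiliary median was the higher. The main edgeR fit gave 0.27 for pore-forming and 0.21 for auxiliary genes, so the order depended on the setting. The share of Scn3a in its family differed by 5.57 percentage points, sgEgfr minus sgRosa, and by -0.17 with Scn2a1 counted, an alternative chosen after seeing the data.

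With the pan-neuronal covariate these log2 fold changes turned sign: Cacna1b -0.29, Cacna1c -0.23, Cacna1d -0.078, Cacna1e -0.14, Cacna1g -0.36, Cacna1i -0.16, Cacna2d1 -0.36, Cacnb1 -0.15, Cacnb3 -0.31, Cacng3 -0.52, Cacng4 0.14, Cacng5 -0.054, Cacng6 -0.10, Scn8a -0.066 and Scn3b -0.51. By limma-voom Cacna1h (0.083), Cacnb2 (0.095) and Cacng5 (-0.20) turned, and without the 2 choroid plexus libraries Cacna1h (0.24), Cacnb2 (0.078) and Cacng4 (0.26). Without single libraries the values that turned ranged from -0.032 to 0.89 for Cacna1b, -0.081 to 0.93 for Cacna1c, -0.23 to 0.37 for Cacna1g, -0.46 to 0.18 for Cacna1h, -0.043 to 0.59 for Cacna1i, -0.35 to 0.14 for Cacnb2, -0.046 to 1.00 for Cacnb3, -0.22 to 1.21 for Cacng3, -0.55 to 0.38 for Cacng4, -0.31 to 0.50 for Cacng5, -0.067 to 2.18 for Cacng6, -2.00 to 1.25 for Scn7a and -0.19 to 1.03 for Scn3b. Without single libraries the values of other members kept their sign but moved by over 1.5 times, between 0.021 and 0.80 for Scn1a, 0.41 and 0.95 for Scn3a, 0.24 and 1.45 for Scn8a, 0.46 and 1.43 for Cacna1a, -1.001 and -0.12 for Cacna2d2, -0.76 and -0.11 for Cacna2d4, 0.11 and 0.43 for Cacnb4, 0.093 and 0.65 for Cacng2, and 0.51 and 1.46 for Cacng8. The cause was not tested. Low depth limits the genes under about 10 counts, and 7 members could not be tested.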

Other observations

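Several channel genes stand beside one another in the genome, and their values can be set side by side as a description. Scn3a and Scn2a1 face away from each other on chromosome 2 with 53.1 kb between them, and both were positive (log2 fold changes 0.76 and 1.03). Scn1a (0.53) and Scn7a (-1.21) of the same cluster lie on either side of Scn9a, which had too few counts to be tested. Cacng7 and Cacng8 were both positive (0.90 and 0.92), and Cacng6, 8.55 kb after Cacng8, stood at 0.32. Scn2b and Scn4b, 8.32 kb apart on 1 strand, had opposite signs (1.03 and -1.67), as did Cacna1c (0.14) and Cacna2d4 (-0.41), 40.1 kb apart, and Cacna2d3 (-0.84) and Cacna1d (0.40), 318 kb apart. None of these values passed the edgeR test.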
